A study of Mus musculus with 3 samples.

Results

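Chemokines are small secreted proteins that direct the migration of leukocytes. The genes described here are 10 members of the CC and CXC classes, grouped under the loose name of inflammatory chemokines. These genes are Ccl2, Ccl7, Ccl8, Ccl11, Cxcl1, Cxcl2, Cxcl5, Cxcl10, Cxcl13 and Cxcl14. They were chosen by name, with earlier results of these data known. Every probe set whose only gene symbol in the array's annotation is one of these names was used. This gave 14 probe sets among 34945 probe sets with a single symbol and 10 genes among 18193. Expression was measured in endosteal cells, which line the inner surface of bone, released by collagenase from femur and tibia fragments of C57BL/6 mice. The cells were depleted of CD45+, CD31+ and Ter119+ cells, the surface markers of leukocytes, endothelium and the red lineage, and sorted on the adhesion molecule ALCAM and the surface antigen Sca-1. The 3 populations were ALCAM- Sca-1+ (called Sca-1+ below), ALCAM+ Sca-1- (called ALCAM+) and ALCAM- Sca-1- (called marker-negative), all negative for CD45, CD31 and Ter119. The mice's age and sex, and whether several mice were pooled, are not given in the sources used here.

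The 2 classes are named after the spacing of their first cysteines, and they signal through G protein-coupled receptors on the responding cells. CC chemokines such as Ccl2 mainly attract monocytes, eosinophils and T cells, while CXC chemokines such as Cxcl1 and Cxcl2 attract neutrophils through Cxcr2. In bone marrow, stromal chemokines are known to govern the release of monocytes and neutrophils into blood and the retention of stem cells. Many inflammatory chemokine genes are switched on by the transcription factor NF-kB after signals from cytokine or Toll-like receptors, and Cxcl10 also by interferons.

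The 250 bases before the annotated start of 3 CXC genes are shown because their signals differ between the populations and because these windows hold the letters searched for NF-kB. They are from RefSeq (GRCm38.p6), which matched 6 of the 10 genes, and are written 5′ to 3′ on the gene's own strand, with matches to 4 motifs in capitals. The Cxcl1 window is at chr5:90890995-90891244, plus strand, the Cxcl2 window at chr5:90903649-90903898, plus strand and the Cxcl10 window at chr5:92348890-92349139, minus strand.
Cxcl1: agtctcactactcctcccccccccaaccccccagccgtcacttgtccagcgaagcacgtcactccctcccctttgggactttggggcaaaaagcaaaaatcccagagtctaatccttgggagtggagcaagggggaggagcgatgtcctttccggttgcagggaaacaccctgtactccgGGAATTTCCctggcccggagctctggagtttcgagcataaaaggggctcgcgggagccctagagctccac
Cxcl2: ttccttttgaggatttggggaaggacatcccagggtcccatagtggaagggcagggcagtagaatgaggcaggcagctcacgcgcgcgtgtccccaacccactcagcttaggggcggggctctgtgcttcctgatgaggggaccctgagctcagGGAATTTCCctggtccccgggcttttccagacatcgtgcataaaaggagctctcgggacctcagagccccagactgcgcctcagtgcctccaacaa
Cxcl10: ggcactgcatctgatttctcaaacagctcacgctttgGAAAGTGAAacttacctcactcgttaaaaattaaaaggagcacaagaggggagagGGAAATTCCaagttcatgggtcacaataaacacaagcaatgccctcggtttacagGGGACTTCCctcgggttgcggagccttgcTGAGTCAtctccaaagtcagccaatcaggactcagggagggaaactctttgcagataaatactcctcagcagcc

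The motifs were GGANNTTCC and GGGANTTCC for NF-kB, GAAANNGAA for the interferon response element and TGANTCA for AP-1, each searched on both strands. In Cxcl1 the capitals mark GGAATTTCC, a match to GGANNTTCC from 70 to 62 bases before the start. In Cxcl2 the same letters lie 96 to 88 bases before the start. The longest run shared by these windows is GGGAATTTCCCTGG, of 14 bases, which contains the match, whereas no other pair of the 6 windows shared more than 10. In Cxcl10 the capitals mark, from left to right, GAAAGTGAA, GGAAATTCC, GGGACTTCC and TGAGTCA, which match the interferon letters, each of the NF-kB motifs and the AP-1 letters, without overlap. GGANNTTCC was found in 3 of the 6 windows of these chemokines and in 3.59% of all 32851 windows of 250 bases, GGGANTTCC in 1 of 6 and 1.43%, GAAANNGAA in 2 of 6 and 7.13%, and TGANTCA in 1 of 6 and 6.75%. The other GAAANNGAA match is in Cxcl14. The letters were chosen with these windows in view, so the shares of all windows give scale and no test. The Cxcl1 and Cxcl2 matches lie in the same shared run and are not independent. A match is a description of letters and not a site. The windows of Ccl8 and Cxcl13 held none of these letters, which says nothing of sequence elsewhere.

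Signals are the deposited MAS5 values on a linear scale, with 1 array per population, which leaves every difference without a replicate check, a test or a p-value, and differences are described by size. Where a gene has several probe sets, the one brightest on average stands for it unless another is named. Signals were raised to a floor of 75.4, the pooled median of all probe sets other than controls, before log2 was taken. A difference of at least 4-fold was counted, and a fold against a signal at or below the floor is a lower bound, given as "at least". As a yardstick of measurement spread, 2 probe sets of the same gene differed in their log2 difference with an SD of 0.75, 0.67 and 0.54 for Sca-1+ over ALCAM+, Sca-1+ over marker-negative and ALCAM+ over marker-negative, over 4152 genes above the floor on each array. Spread between sorts and mice was not measured.

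All 14 probe sets had their highest signal on the Sca-1+ array. For comparison, 38.7% of the 12643 genes that exceeded the floor on 1 or more arrays had their highest signal there. The members were chosen with earlier results known, so this share is no test of them. The members' lowest signal was on the ALCAM+ array for 8 of the 10 genes and on the marker-negative array for Cxcl5 and Cxcl13. Of the 10 genes, 3 (Cxcl1, Cxcl10 and Cxcl14) were above the floor on every array, 3 (Ccl2, Ccl8 and Cxcl2) on the Sca-1+ and marker-negative arrays, 3 (Ccl7, Ccl11 and Cxcl13) on the Sca-1+ array alone, and Cxcl5 on none. The genes above the floor on the Sca-1+ array alone passed through the array where they are high, so they could only differ in that direction.

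**Figure D1:**
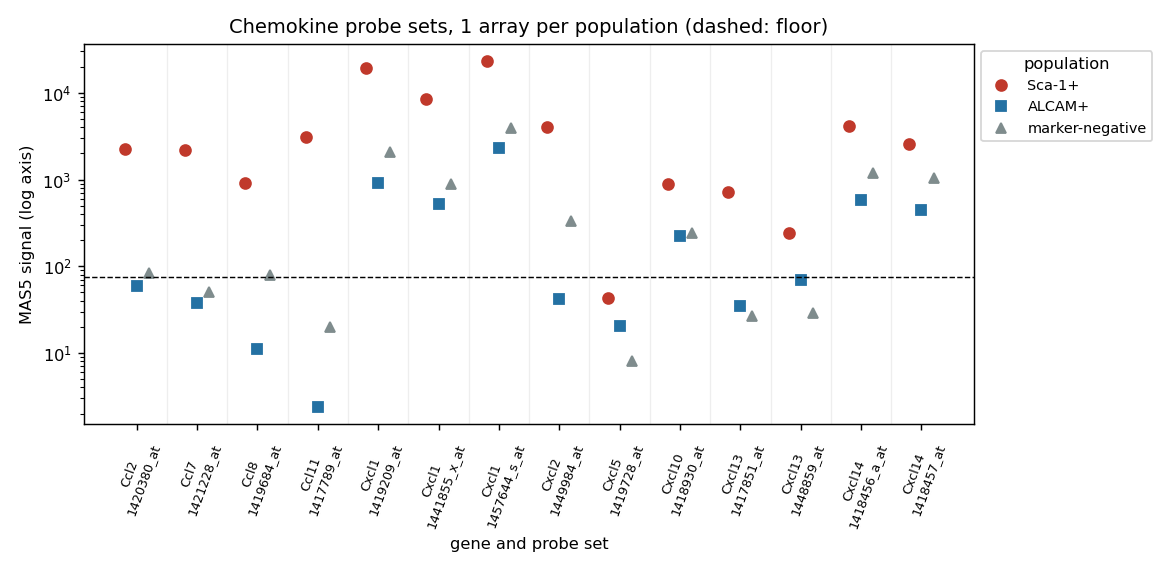
MAS5 signal (log axis) of the 14 chemokine probe sets on the Sca-1+, ALCAM+ and marker-negative arrays, 1 point per array, with the floor of 75.4 dashed. The Sca-1+ point is the highest of each probe set, and Cxcl5 lies below the floor on the 3 arrays.

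In Sca-1+ over ALCAM+ cells, 9 of the 10 genes passed 4-fold upward and 0 downward, while over all genes above the floor on any array 5.86% were higher and 3.99% lower. In Sca-1+ over marker-negative cells, 7 of 10 were at least 4-fold higher (all genes, 5.46%) and 0 lower (4.71%). These comparisons share the Sca-1+ array. As the members were chosen with earlier results of these data known, the shares over all genes give scale and no test of enrichment. In ALCAM+ over marker-negative cells, 0 of 10 were at least 4-fold higher (all genes, 2.01%) and 1, Cxcl2, was lower (2.67%). Nearest to the 4-fold limit was Cxcl10, just inside it at 4.01-fold over ALCAM+ and just outside it at 3.72-fold over marker-negative cells, a gap smaller than the disagreement between probe sets.

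The 4 CC genes all passed 4-fold upward in Sca-1+ cells, with log2 differences of 3.61 to 5.36 over ALCAM+ and 3.55 to 5.36 over marker-negative cells that are in part lower bounds set by the floor. Ccl2, the monocyte attractant that acts on Ccr2, had a signal of 2249 in Sca-1+, 59.8 in ALCAM+ and 83.2 in marker-negative cells. Only the Sca-1+ array was clearly above the floor, and the gene was at least 29.8-fold higher than in ALCAM+ and 27.0-fold higher than in marker-negative cells. Ccl7, another monocyte attractant acting on Ccr2, had 2170 in Sca-1+, 37.4 in ALCAM+ and 50.7 in marker-negative cells. Both lower values were under the floor, so the fold over either was at least 28.8. Ccl11, which encodes eotaxin, the eosinophil attractant that acts on Ccr3, had 3091 in Sca-1+, 2.40 in ALCAM+ and 20.1 in marker-negative cells. Its fold over either of the others, which were both under the floor, was at least 41.0. Ccl8, which in the mouse acts on Ccr8, had 921.8 in Sca-1+, 11.1 in ALCAM+ and 78.9 in marker-negative cells. It was at least 12.2-fold higher than in ALCAM+ cells and 11.7-fold higher than in marker-negative cells, whose signal was barely over the floor.

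Among the CXC genes the neutrophil attractants Cxcl1 and Cxcl2, both ligands of Cxcr2, differed in how low they were in ALCAM+ cells. Cxcl2 had 4009 in Sca-1+, 41.7 in ALCAM+ and 332.3 in marker-negative cells. The 3 arrays were apart from each other: in Sca-1+ cells the gene was at least 53.2-fold higher than in ALCAM+ cells and 12.1-fold higher than in marker-negative cells, and it was at least 4.41-fold lower in ALCAM+ than in marker-negative cells. Cxcl1 had 23114 in Sca-1+, 2286 in ALCAM+ and 3879 in marker-negative cells in its brightest probe set (1457644_s_at). It was therefore 10.1-fold and 5.96-fold higher in Sca-1+ cells, with the other populations well above the floor and 1.70-fold apart. Its other probe sets gave larger folds for Sca-1+ cells. Probe set 1419209_at had 19298 in Sca-1+, 912.2 in ALCAM+ and 2068 in marker-negative cells, that is 21.2-fold and 9.33-fold, and 1441855_x_at had 8581 in Sca-1+, 524.5 in ALCAM+ and 886.8 in marker-negative cells, that is 16.4-fold and 9.68-fold. The order of the populations was the same in the 3 probe sets. Cxcl5, a further ligand of Cxcr2, had 43.2 in Sca-1+, 20.4 in ALCAM+ and 8.0 in marker-negative cells. All of these were below the floor, so no fold is given, and the signal of this neutrophil attractant was under the median of all probe sets in each population.

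**Figure D2:**
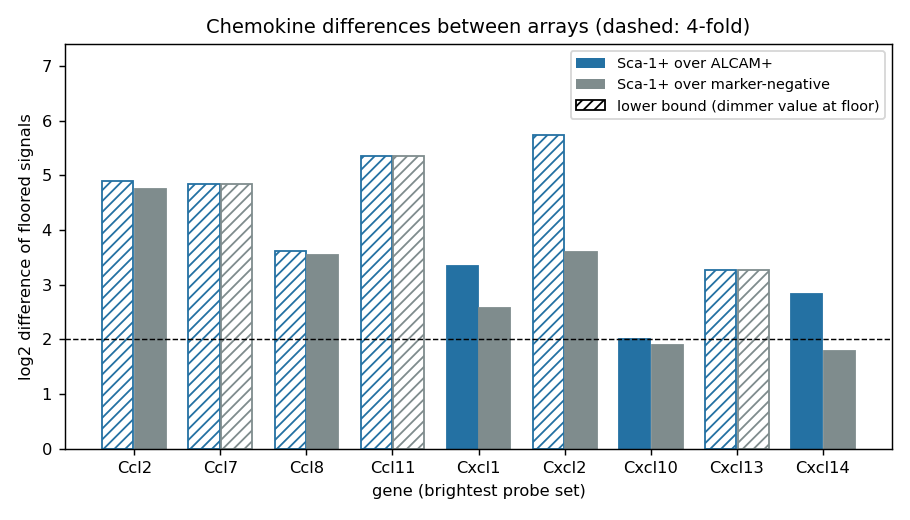
Log2 difference of floored signals for Sca-1+ over ALCAM+ and Sca-1+ over marker-negative cells in the 9 genes above the floor on any array, 1 array per population, with 4-fold dashed. Hatched bars are lower bounds because the dimmer signal was at or below the floor, and the bars of Cxcl10 end near the dashed line, at 4.01-fold and 3.72-fold.

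The remaining CXC genes act on lymphocytes or have less settled targets, and their differences ran from small to large. Cxcl13, the B cell attractant that acts on Cxcr5, had 724.2 in Sca-1+, 35.2 in ALCAM+ and 26.6 in marker-negative cells (1417851_at). In Sca-1+ cells it was thus higher than in either population by at least 9.60-fold. Its dimmer probe set (1448859_at) had 243.6 in Sca-1+, 69.8 in ALCAM+ and 29.1 in marker-negative cells, at least 3.23-fold higher and so short of 4-fold. Both probe sets were above the floor on the Sca-1+ array alone. Cxcl10, the interferon-induced ligand of Cxcr3, had 890.0 in Sca-1+, 221.8 in ALCAM+ and 239.2 in marker-negative cells. Every array was above the floor, and ALCAM+ and marker-negative cells were 1.08-fold apart, well within the probe set disagreement. Cxcl14, a chemokine made by many epithelia and fibroblasts without stimulation, had 4108 in Sca-1+, 577.6 in ALCAM+ and 1196 in marker-negative cells (1418456_a_at). It was 7.11-fold higher than in ALCAM+ and 3.43-fold higher than in marker-negative cells, and 2.07-fold lower in ALCAM+ than in marker-negative cells. Its second probe set (1418457_at) had 2540 in Sca-1+, 447.5 in ALCAM+ and 1044 in marker-negative cells and gave 5.68-fold, 2.43-fold and 2.33-fold in the same directions.

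**Figure D3:**
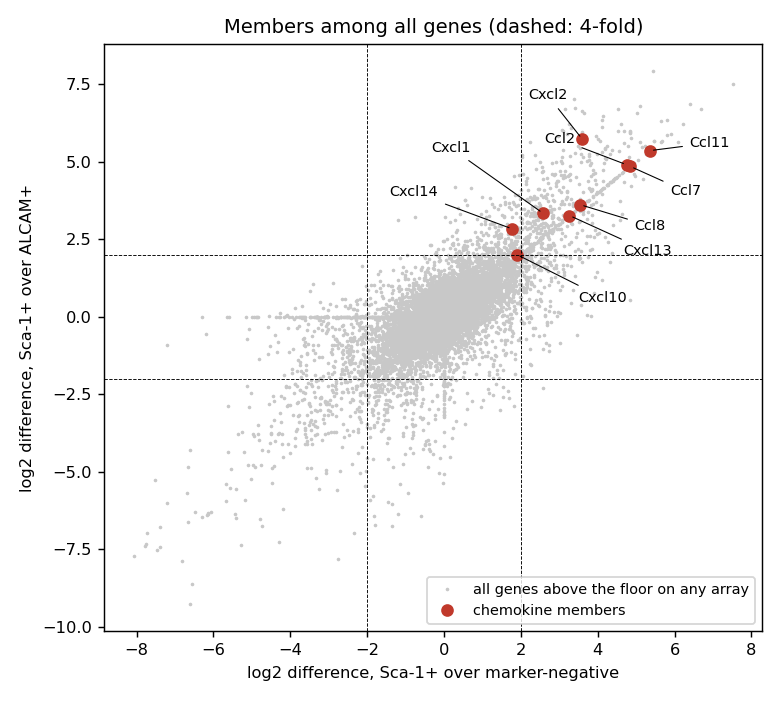
Log2 difference of Sca-1+ over marker-negative cells (x) against Sca-1+ over ALCAM+ cells (y) for the 12643 genes above the floor on any array (grey) and the 9 chemokine genes among them (red), with 4-fold dashed. Both axes share the Sca-1+ array, and 7 of the red points lie beyond 4-fold on both.

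The chemokine genes lie in clusters, and their neighbours were not alike in signal. The members were chosen with earlier results of these data known, so a contrast with non-members may follow from that choice. By gene order in GRCm38.p6, the protein-coding genes Ccl2, Ccl7, Ccl11, Ccl12, Ccl8 and Ccl1 follow each other on chromosome 11. The 4 members of this run were high in Sca-1+ cells, whereas Ccl12, a mouse monocyte attractant that stands between Ccl11 and Ccl8, had 5.10 in Sca-1+, 1.60 in ALCAM+ and 2.30 in marker-negative cells. Ccl1, at the end of the run, had 15.5 in Sca-1+, 46.1 in ALCAM+ and 32.6 in marker-negative cells, so both non-members were below the floor on the 3 arrays. On chromosome 5 the run is Cxcl5, Ppbp, Pf4, Cxcl3, Cxcl15, Cxcl1 and Cxcl2. Cxcl1 and Cxcl2, at its end, were high in Sca-1+ cells, while Cxcl5, Ppbp, Cxcl3 and Cxcl15 were below the floor on each array. Pf4, the platelet chemokine gene, had 48.2 in Sca-1+, 24.3 in ALCAM+ and 185.1 in marker-negative cells, the one gene of the run with its only signal above the floor in marker-negative cells.

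**Figure D4:**
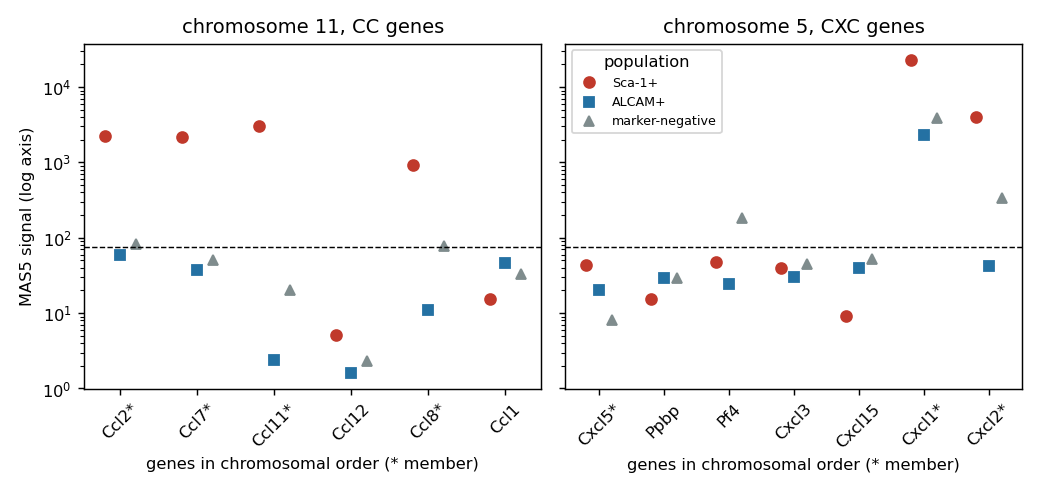
MAS5 signal (log axis) of the runs of adjacent chemokine genes on chromosomes 11 and 5, in chromosomal order and not to scale, on the Sca-1+, ALCAM+ and marker-negative arrays, with the floor of 75.4 dashed and members starred. Ccl12 and Ccl1 lie below the floor beside members that reach 921.8 to 3091 in Sca-1+ cells.

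The other chemokine ligands, set apart from the members with earlier results of these data known, were mostly dim. Of the 14 other CC genes with a probe set, 5 were above the floor on any array (all genes, 12643 of 18193). Of these, 0 were at least 4-fold apart in any of the 3 comparisons. Over all genes, 2.01% to 5.86% passed 4-fold per comparison and direction, so 0 of 5 is near these shares. Ccl3, Ccl5, Ccl17, Ccl20 and Ccl22, made by activated leukocytes and epithelia, were below the floor on the 3 arrays. The 5 above it on any array were Ccl4, Ccl9, Ccl25, Ccl27a and Ccl28. Ccl4 was above it on each array, at 103.2 in Sca-1+, 104.2 in ALCAM+ and 115.4 in marker-negative cells. Of 11 other ligand genes of the CXC, CX3C and XC classes, 6 were above the floor. In Sca-1+ cells 2 passed 4-fold over ALCAM+ (all genes, 5.86%) and 1 over marker-negative cells (5.46%). Cxcl12, the homeostatic chemokine that retains stem cells in marrow, was higher than in both, at 20123 in Sca-1+, 319.7 in ALCAM+ and 778.3 in marker-negative cells. Its 2 further probe sets above the floor had the same direction. Cxcl16, a membrane-bound ligand of Cxcr6, had 408.8 in Sca-1+, 61.1 in ALCAM+ and 136.7 in marker-negative cells, at least 5.42-fold and 2.99-fold higher in Sca-1+ cells.

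Receptors for these ligands had little signal. Of 16 signalling receptor genes with a probe set, 3 (Ccr6, Cxcr3 and Cxcr4) were above the floor on any array (all genes, 12643 of 18193) and 0 in Sca-1+ cells. Ccr2, Ccr3, Cxcr2, Cxcr5 and Ccr8, the receptors of most of the ligands described, were below the floor on the 3 arrays. Cxcr3, the receptor of Cxcl10, had 50.7 in Sca-1+, 360.1 in ALCAM+ and 112.5 in marker-negative cells, at least 4.78-fold lower in Sca-1+ than in ALCAM+ cells. The atypical receptors, which bind chemokines without classical signalling, were above the floor in 5 of 5 cases (all genes, 12643 of 18193). Ackr1, which binds many inflammatory CC and CXC chemokines, had 3129 in Sca-1+, 12.2 in ALCAM+ and 151.6 in marker-negative cells, at least 41.5-fold and 20.6-fold higher in Sca-1+ cells. Ackr2, a scavenger of inflammatory CC chemokines, had 3030 in Sca-1+, 179.2 in ALCAM+ and 501.3 in marker-negative cells, or 16.9-fold and 6.04-fold higher in Sca-1+ cells, with 2 of 2 other probe sets in the same direction. Ackr4, which binds homeostatic CC chemokines, had 194.5 in Sca-1+, 701.8 in ALCAM+ and 41.8 in marker-negative cells, but 0 of 2 other probe sets shared its direction in Sca-1+ over ALCAM+ or in ALCAM+ over marker-negative cells, so its order is uncertain.

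NF-kB pathway and feedback genes were above the floor in 18 of 18 cases (all genes, 12643 of 18193). The chemokines were chosen with earlier results of these data known, so the sizes of the 2 groups are not compared. In Sca-1+ cells 2 of them passed 4-fold upward over ALCAM+ (all genes, 5.86%) and 0 over marker-negative cells (5.46%). By the same limit 0 were lower in either comparison (3.99% and 4.71%). Their median log2 differences were 0.72 and 0.34 (all genes, 0.01 and 0.00). Tnfaip3, an inhibitor induced by NF-kB, had 3722 in Sca-1+, 699.2 in ALCAM+ and 1591 in marker-negative cells, or 5.32-fold and 2.34-fold higher in Sca-1+ cells. Nfkbie, which encodes an inhibitor of NF-kB, had 721.2 in Sca-1+, 166.0 in ALCAM+ and 314.2 in marker-negative cells, or 4.34-fold and 2.30-fold higher. Nfkbia, the classical inhibitor and target, was bright throughout, at 21798 in Sca-1+, 17420 in ALCAM+ and 15836 in marker-negative cells. Of the 18 genes, 13 were highest in Sca-1+ cells and 4 were lowest there. Among the lowest, Rel, which encodes an NF-kB subunit, was 3.76-fold lower than in ALCAM+ and 3.30-fold lower than in marker-negative cells.

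Receptors and adaptors of the signals that induce chemokines had 23 of 24 genes above the floor (all genes, 12643 of 18193). In Sca-1+ cells 4 of them passed 4-fold upward over ALCAM+ (all genes, 5.86%) and 5 over marker-negative cells (5.46%). With 0 downward, their median log2 differences were 0.81 and 1.04. Tlr4, the receptor of bacterial lipopolysaccharide, had 1063 in Sca-1+, 85.8 in ALCAM+ and 122.1 in marker-negative cells, or 12.4-fold and 8.71-fold higher in Sca-1+ cells. Tlr2, a receptor of bacterial lipoproteins, had 2216 in Sca-1+, 265.1 in ALCAM+ and 434.9 in marker-negative cells, or 8.36-fold and 5.10-fold higher. Il4ra and Il13ra1, the chains of the type II receptor for the Ccl11-inducing cytokines IL-4 and IL-13, were higher in Sca-1+ cells by 5.72-fold and 11.6-fold over ALCAM+ and by 8.30-fold and 4.89-fold over marker-negative cells. Tlr3, a receptor of double-stranded RNA, was 4.38-fold higher than in marker-negative cells.

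The inducing cytokines themselves were above the floor in 7 of 15 cases (all genes, 12643 of 18193). Tnf, Il1a, Il17a, Ifng, Il4 and Il13 were below the floor on the 3 arrays, and Il1b had 77.9 in Sca-1+, 62.0 in ALCAM+ and 85.1 in marker-negative cells. In Sca-1+ cells Il33, an alarmin of stromal cells, was higher by at least 68.1-fold over ALCAM+ and by 9.85-fold over marker-negative cells, and Csf1, the macrophage growth factor, 11.9-fold and 10.2-fold higher. Il6 was 10.7-fold higher than in ALCAM+ cells and 2.15-fold higher than in marker-negative cells, with 9399 in Sca-1+, 881.7 in ALCAM+ and 4377 in marker-negative cells. In the opposite direction, Lif was 7.54-fold lower in Sca-1+ cells relative to marker-negative cells, with 200.8 in Sca-1+, 416.2 in ALCAM+ and 1513 in marker-negative cells, and Csf2 was at least 4.48-fold lower.

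Interferon-induced genes, the group Cxcl10 belongs to by its known regulation, were above the floor in 18 of 18 cases (all genes, 12643 of 18193). In Sca-1+ cells 7 passed 4-fold upward over ALCAM+ (all genes, 5.86%) and 4 over marker-negative cells (5.46%). With 0 downward, their median log2 differences were 0.95 and 0.98. Oasl2 was at least 10.5-fold higher than in either population, Usp18 at least 8.03-fold and Ifit1 at least 6.94-fold, while Gbp2 was 6.06-fold and 13.9-fold higher. Ifit2 and Gbp3 passed 4-fold over ALCAM+ cells only, at 4.53-fold and 4.31-fold, with 1.79-fold and 3.15-fold over marker-negative cells. Irf9 differed little, by 1.04-fold over ALCAM+ cells. Cxcl10 thus lay inside the range of this list in both comparisons.

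Collagenase release of cells is itself known to induce stress genes, some of which share regulators with chemokines. Of 19 immediate early and dissociation genes, 19 were above the floor on each array and 0 were at least 4-fold apart in any comparison. Over all genes, 2.01% to 5.86% passed 4-fold per comparison and direction, so 0 of 19 is near these shares. Their median log2 difference was -0.58 in Sca-1+ over ALCAM+ cells and -0.26 in Sca-1+ over marker-negative cells. Fos had 21600 in Sca-1+, 33114 in ALCAM+ and 25828 in marker-negative cells. Of the 19 genes, 15, Fos among them, were lowest in Sca-1+ cells, whereas 3 (Hspa1a, Hspa1b and Nr4a1) were highest there. All populations were released with collagenase, and its part in the chemokine values was not tested.

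**Figure D5:**
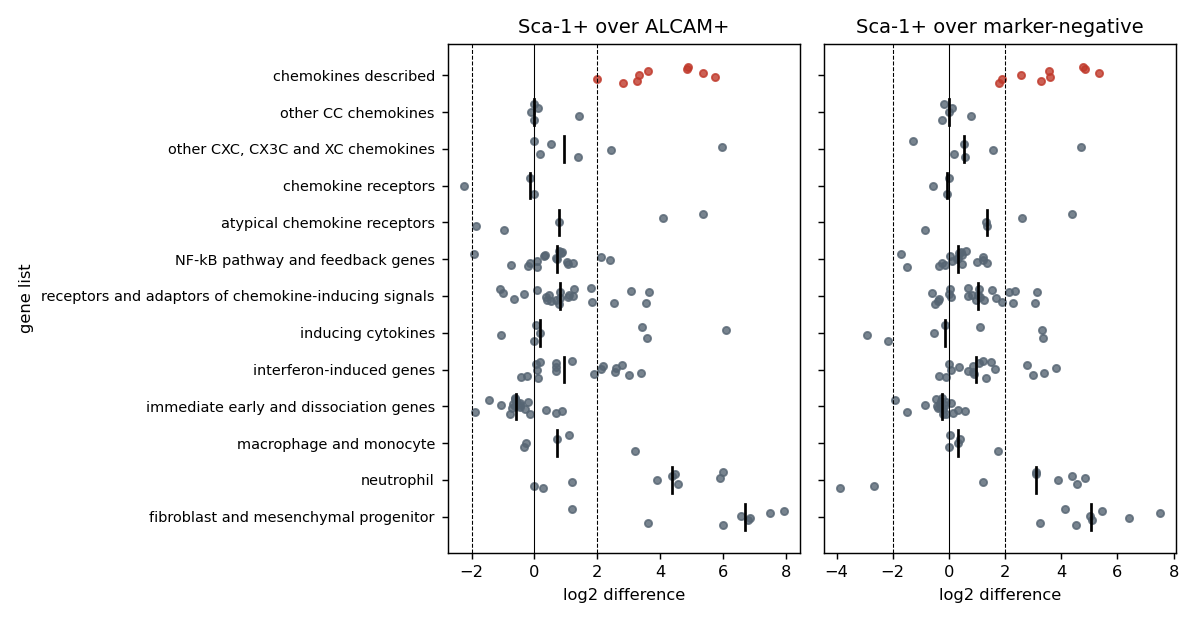
Log2 differences of floored signals in Sca-1+ over ALCAM+ (left) and Sca-1+ over marker-negative cells (right), 1 point per gene above the floor on any array, for the chemokines (red) and 12 lists of related genes and cell type markers (grey, median as a bar), with 4-fold dashed. The immediate early genes lie within the dashed lines, and the fibroblast list lies to the right in both panels. Most neutrophil genes also lie to the right, but Elane (-2.68) and Mpo (-3.89) lie far to the left in the right panel.

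Markers of other cell types moved with the chemokines in part. Of 9 neutrophil genes, 6 passed 4-fold upward in Sca-1+ cells over each of the other populations, namely S100a8, Ngp, S100a9, Lcn2, Camp and Ltf. Over all genes 5.86% did so over ALCAM+ and 5.46% over marker-negative cells. Another 2 (Elane and Mpo) were lower than in marker-negative cells (all genes, 4.71%). Their summed signal was 16426 in Sca-1+, 437.2 in ALCAM+ and 3062 in marker-negative cells, and their part in the chemokine values was not tested. Neutrophils can make Cxcl2, and whether they did so here was not tested. Cxcr2, a receptor of neutrophils, had 11.5 in Sca-1+, 2.80 in ALCAM+ and 4.70 in marker-negative cells. Of 12 macrophage and monocyte markers, 5 were above the floor in Sca-1+, 4 in ALCAM+ and 5 in marker-negative cells, and the list summed to 2082 in Sca-1+, 1261 in ALCAM+ and 1393 in marker-negative cells. Adgre1, Itgam, C1qa, C1qb, C1qc, Fcgr1 and Mrc1 of this list were below the floor on the 3 arrays. Lyz2, shared with neutrophils, had 888.0 in Sca-1+, 96.6 in ALCAM+ and 262.3 in marker-negative cells. Ptprc, which encodes CD45, had 163.2 in Sca-1+, 11.6 in ALCAM+ and 159.4 in marker-negative cells, and its part in the chemokine values was not tested. The 5 lymphocyte and 6 mast cell and basophil genes with a probe set were below the floor throughout. Of 6 endothelial genes, Tek, the angiopoietin receptor, was higher in Sca-1+ cells than in either population by at least 8.36-fold, while Pecam1, Cdh5, Emcn and Tie1 were below the floor on the 3 arrays. Erythroid markers were above the floor in marker-negative cells in 5 of 5 cases, with a summed signal of 255.5 in Sca-1+, 270.9 in ALCAM+ and 11826 in marker-negative cells. In sorted bulk RNA, fewer cells of a type and less RNA per cell cannot be told apart.

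Fibroblast and mesenchymal progenitor markers marked the Sca-1+ array. Of these, 7 of 8 were at least 4-fold higher than in ALCAM+ (all genes, 5.86%) and 8 of 8 than in marker-negative cells (5.46%). Their summed signals were 109729 in Sca-1+, 5922 in ALCAM+ and 3166 in marker-negative cells. Osteoblast markers summed to 8600 in Sca-1+, 128893 in ALCAM+ and 45463 in marker-negative cells, and chondrocyte markers to 3959 in Sca-1+, 112482 in ALCAM+ and 110954 in marker-negative cells. Alcam itself had 41.1 in Sca-1+, 267.7 in ALCAM+ and 36.3 in marker-negative cells, and the gene of Sca-1 was not analysed here.

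The genes with the most similar pattern were sought by the distance between pairs of log2 differences, Sca-1+ over ALCAM+ and Sca-1+ over marker-negative, which rest on 3 arrays only. Closest to Ccl2 were Cadm3, at a distance of 0.10, then C1s1, Abca8a, Gpr1 and Fgf7, up to 0.19, and 15 genes other than the members lay within 0.5. C1s1, a complement protease gene, had 13828 in Sca-1+, 427.6 in ALCAM+ and 514.8 in marker-negative cells, whereas Cadm3, Gpr1 and Fgf7 were above the floor in Sca-1+ cells alone. Closest to Cxcl1 were Sema3e and Ccdc102a, both at 0.07, then Prickle2, Gpr137b-ps and Hsd11b2, up to 0.17, and 71 genes lay within 0.5. Where a dimmer signal is under the floor, as for Ccl2 and Hsd11b2 in ALCAM+ cells and for Cadm3, Gpr1 and Fgf7 in both other populations, the difference is a bound and the distance mostly reflects the Sca-1+ signal, so these names and their order describe floored values alone.

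Scaling each array on its spiked-in poly-A controls, in place of the deposited scaling, moved the median of all genes by 0.73 in Sca-1+ over ALCAM+ (1444 genes higher and 288 lower, against 741 and 504 as deposited), by 0.25 in Sca-1+ over marker-negative (956 and 513, against 690 and 595) and by -0.42 in ALCAM+ over marker-negative cells (163 and 555, against 254 and 338). Under it the 9 members above the floor kept their directions in Sca-1+ over both other populations, and Cxcl10 and Cxcl14 passed 4-fold over marker-negative cells, at log2 differences of 2.20 and 2.09 that include the shift. Scaling on the hybridization controls moved the same medians by 0.73, 0.24 and -0.43. The shift is thus not particular to the poly-A controls, and its source was not tested. The share of probe sets above the floor was 48.9% in Sca-1+, 49.7% in ALCAM+ and 51.4% in marker-negative cells. The ratio of 3′ to 5′ control signal, a measure of RNA integrity, was 2.55 to 2.77 for Actb and 3.75 to 3.96 for Gapdh.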

How the data were processed

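Endosteal cells of 3 sorted populations were measured on 1 array each, grouped by the titles in the labels. Per the labels' protocols, RNA came from a TRIzol extraction and was labelled with biotin in an assay with 2 amplification cycles, which favours 3′ ends. The values are signal intensities that the authors deposited on a linear scale, made with MAS5 per the submitters' processing notes (version not given in the sources used here). The 2% trimmed mean was 500.0 on each array, so no further scaling was applied. Scaling of this kind hides differences in total RNA.

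From these, 64 control probe sets of 45101 were left out, and 34945 probe sets with 1 symbol were grouped into 18193 genes (932 with several symbols and 9160 unnamed ones were not used). RefSeq identifiers (GRCm38.p6) were found for 34741 of them and changed 0 symbols. Signals were raised to the floor, turned to log2 and compared by size, with no test, since each population has 1 array. The number of arrays limits the precision. The procedure was tested on simulated data (Python 3.11.15, numpy 2.4.6, pandas 2.3.3).

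Members and lists were chosen with earlier results of these data known, and the motif letters with the promoter windows in view (GGANNTTCC and GAAANNGAA are shortened by 1 base from the form first searched, which fewer windows hold). Genes of a list at least 4-fold apart in any comparison were named, up to 6 a list, plus those a sentence rests on. The fibroblast, osteoblast, chondrocyte and erythroid lists were instead given by counts or sums, without gene names. The 5 genes nearest to Ccl2 and to Cxcl1 were also named. List genes with no probe set of a single symbol were not analysed here. Alternatives were quantile normalization, scaling on 2 kinds of control, 3 other floors, averaging probe sets, and limits of 2-fold and 8-fold.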

Additional observations from a re-analysis of the deposited data

How the results depend on the processing

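Members that passed 4-fold upward in Sca-1+ cells numbered 6 to 9 over ALCAM+ and 5 to 9 over marker-negative cells across the 9 alternatives, against 9 and 7, and 0 were lower in either. The fewest came with a higher floor, the 75th percentile of pooled signals (433.9), which lifts most of the dim values, and Ccl2, Ccl7, Ccl11, Cxcl1 and Cxcl2 passed there in both comparisons. Quantile normalization left Cxcl10 under 4-fold over ALCAM+ cells. In ALCAM+ over marker-negative cells, the 1 member lower became 0 with that higher floor, 0 at a limit of 8-fold and 2 at a limit of 2-fold, where Cxcl14 joined Cxcl2. Of 210 values of single genes under alternatives, 177 moved by less than the disagreement between probe sets, 33 moved by more and 0 called values changed sign. Ccl11 over ALCAM+ ran from 2.83 to 7.19 on the log2 scale with the floor, because its dimmer signals are bounds. Signal over background limits Cxcl5, which is below the main floor on each array and has a log2 difference of at least 1.03 over either population with the floor at the 25th percentile. No paired analysis was possible because each population has 1 array and the labels give no replicate numbers.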
